A study of Mus musculus with 9 samples.

Results

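The transcripts of mouse oocytes frozen by 2 different protocols were compared directly, library against library and across all genes. The comparison takes in 6 of the 9 libraries of the study: the 3 treated as cryopreservation-2 and the 3 treated as cryopreservation-1. The 3 fresh libraries, from oocytes that were not frozen, entered the same fit for their spread and are given as the unfrozen level where a result turns on it. Cryopreservation-1 used a cryotop, a thin film strip that carries a very small drop, with EG (15%), DMSO (15%) and sucrose (0.5 M). Cryopreservation-2 used a straw, with EG (17.5%), trehalose (1 M) and nanoparticles given as PVA/Fe3O4/GO. The carrier, the permeating agents, the sugar and the nanoparticles changed together, so their parts in a difference cannot be told apart. The labels name the cells only as oocytes; strain, age, maturation stage, number of oocytes per library and time after thawing are unknown here. Nor do they state whether each replicate was its own pool of oocytes or its own animals. The p-values therefore describe the spread among these libraries, part of which can be technical.

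Full-grown oocytes transcribe little and live on stored maternal mRNA until the embryo starts its own transcription. Their transcript levels in poly(A) libraries therefore move mainly with decay and with the shortening or lengthening of the poly(A) tail. Freezing exposes the cell to osmotic change, cold, high solute and oxidative stress, and the mitochondria, the spindle and the cortical actin of the oocyte are known to be sensitive to it.

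Total counts were between 49337232 and 51369012 in the cryopreservation-2 libraries and between 64276885 and 80877288 in the cryopreservation-1 libraries, so method and depth moved together. The 6 libraries separated by method on the first principal component, which held 53.4% of the variance over 8114 genes and placed cryopreservation-1 between -35.5 and -25.3 and cryopreservation-2 between 22.8 and 42.6. The second component held 28.1% and set cryopreservation-2 replicate 1 at -37.3 and cryopreservation-1 replicate 3 at -24.6, against 4.81 to 24.9 for the other 4. These 2 libraries also listed the most genes at 0 counts within their methods, 8667 and 8421 against at most 6894 in the other 4. Oocyte markers were abundant in both methods, at 1.57% to 2.48% of all counts. Gdf9, a growth factor that the oocyte sends to the follicle cells, stood at 12530, 10810 and 7942 CPM (read counts relative to library size, scaled by TMM) in cryopreservation-1 and at 5251, 10170 and 9852 CPM in cryopreservation-2. The ranges of Gdf9 overlapped, and the log2 difference (cryopreservation-2 minus cryopreservation-1, as throughout) was -0.31 (SE 0.29, edgeR adjusted p = 0.659).

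The direct comparison asks which transcripts differ between oocytes frozen in the straw with nanoparticles and those frozen on the cryotop. Of 17545 genes tested, 483 were called different at an adjusted p under 0.05 (edgeR's quasi-likelihood test with Benjamini-Hochberg adjustment), which is 2.75%. Cryopreservation-2 was higher in 263 (1.5%) and lower in 220 (1.25%). Calls in each gene list below are set against these shares, which rose with level. Split by mean CPM into 5 classes of equal size, the lowest had 0% called higher and 0.14% lower. The next to highest had 3.11% and 1.51%, and the highest (37.2 CPM or more) 2.85% and 3.39%. Lists of well-expressed genes are thus set against a share that low genes reduce, and no list was matched for level. In all 483 the 3 libraries of one method did not overlap the 3 of the other, which held for 29% of all genes tested. The genes called higher had a median fold of 3.46 and 105 of them changed at least 4-fold, whereas those called lower had a median fold of 2.43 and 54 changed at least 4-fold. At an unadjusted p under 0.05 there were 3324 genes, 18.9% of those tested. In these bulk libraries, fewer oocytes that hold a transcript and less of it per oocyte cannot be told apart. Beside this, in the same fit, 0 genes were called between cryopreservation-1 and fresh (0%; 828 at an unadjusted p under 0.05, 43 by DESeq2), and 944 (5.38%) between cryopreservation-2 and fresh, 558 of them higher (3.18%) and 386 lower (2.2%); these comparisons share libraries with the direct one.

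**Figure D1:**
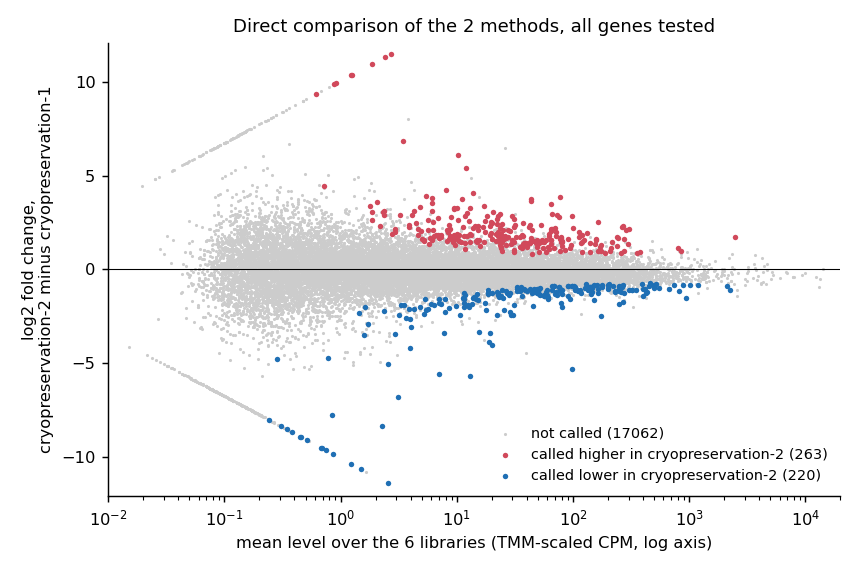
Each point is a gene tested; the horizontal axis is its mean level over the 6 libraries (TMM-scaled CPM, log axis) and the vertical axis its log2 fold change, cryopreservation-2 minus cryopreservation-1. Of the genes called, 100 of 263 higher (red) and 119 of 220 lower (blue) lie at the highest levels, 37.2 CPM or more; the straight rays at both edges are genes with 0 counts in every library of one method, whose fitted fold is no measured size.

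All libraries thinned to the depth of the smallest gave 555 calls, with 482 of the 483 among them. The number of calls rested on single libraries. Without cryopreservation-1 replicate 1, 15 genes were called, without its replicate 2 there were 103 and without its replicate 3 there were 16. Without cryopreservation-2 replicate 1, 2 or 3 the counts were 237, 174 and 96, and without fresh replicate 1, 2 or 3 they were 392, 480 and 436. Without both libraries that stood apart, cryopreservation-2 replicate 1 and cryopreservation-1 replicate 3, 5 genes were called. Over all gene lists described here, edgeR then left 2 higher calls (actin cytoskeleton) without cryopreservation-1 replicate 1, 1 lower call (meiotic maturation) without its replicate 3, and 0 without both libraries that stood apart. Each of the 483 genes kept its direction in all 25 alternative fits in which it was tested. The balance of directions moved with the scaling: by library totals without TMM, 492 of 619 calls were higher in cryopreservation-2 (79.5%), with the median of all genes shifted by 0.20 (log2). Corrected for GC content and for transcript length, 288 of 943 were higher (30.5%), with that median shifted by -0.13, against 54.5% here.

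Of the genes called, 12 were called whichever of the 9 libraries was left out. Those higher in cryopreservation-2 were Tm2d1, Trim15, Galnt9 and the non-coding Gm17251. Those lower were Arid5b, Rassf3, Chd2, Erbb3, Prr18, Rhbdf1 and the processed pseudogenes Gm4929 and Rpsa-ps4. Chd2, a chromatin remodeller, stood at 28.1 ± 4.16 CPM in cryopreservation-1 and 2.77 ± 0.769 CPM in cryopreservation-2 (SD, n = 3 each). Erbb3, a receptor of the epidermal growth factor receptor family, stood at 13.7 ± 6.55 and 0.285 ± 0.133 CPM. Chd2, Erbb3, Prr18, Gm17251, Gm4929 and Rpsa-ps4 are not covered by the naming rule; they were picked with their values in view, as members of this group of 12.

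Tm2d1 led the genes higher in cryopreservation-2. This gene of a TM2-domain membrane protein, on chromosome 4 from 98355370 to 98383306 (GRCm38), gave 9.41, 14.1 and 8.03 CPM in cryopreservation-1 and 129, 108 and 115 CPM in cryopreservation-2. The groups stood far apart, at 11.2-fold (log2 fold change 3.48, SE 0.34, adjusted p = 0.00383), and fresh libraries (7.52 to 16.7 CPM) lay with cryopreservation-1. Trim15, a tripartite motif protein, rose from 2.80, 2.79 and 1.81 CPM to 30.4, 15.9 and 24.3 CPM. Dbt, the acyltransferase core of the complex that breaks down branched-chain amino acids, stood at 11.2, 10.2 and 8.82 against 255, 70.6 and 106 CPM. Its cryopreservation-2 libraries were spread widely but lay far above the others. Its fold was 14.3 (log2 3.84, SE 0.47, adjusted p = 0.00831). Traf3ip1, a protein of the transport machinery of cilia, was 12.6-fold higher, at 97.8, 78.1 and 66.7 CPM against 5.82, 7.43 and 6.01 CPM.

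Smarca5, a chromatin remodelling ATPase of the ISWI type, gave 43.3, 57.9 and 45.4 CPM in cryopreservation-1 and 335, 264 and 235 CPM in cryopreservation-2. The difference was 5.68-fold (log2 2.51, SE 0.29, adjusted p = 0.00783), and the fresh libraries, at 175, 98.2 and 87.7 CPM, lay between the methods. Sgf29, a reader of methylated histone H3 in the SAGA complex, was 4.44-fold higher, at 114, 118 and 92.6 CPM against 22.4, 30.1 and 20.6 CPM. Galnt9, an enzyme that starts O-linked sugar chains, was 4.16-fold higher, with 120, 83.0 and 112 CPM against 31.9, 26.0 and 17.9 CPM. Hspa8, the constitutive cytosolic Hsp70 chaperone, stood at 36.7, 40.6 and 28.4 CPM in cryopreservation-1 and at 211, 175 and 102 CPM in cryopreservation-2. Its log2 fold change was 2.21 (SE 0.29, adjusted p = 0.00983). The remaining leading genes were Fank1, Mrps33, Ndufa1 and Pdcl3, a cochaperone of the phosducin family, with folds of 4.27, 3.32, 9.55 and 3.69.

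Arid5b had the smallest adjusted p-value of all genes tested, 0.00139. It encodes a DNA-binding protein with an AT-rich interaction domain and lies on the minus strand of chromosome 10 from 68092520 to 68278740 (GRCm38). Its level was 231, 182 and 164 CPM in cryopreservation-1 and 5.69, 4.47 and 4.53 CPM in cryopreservation-2, a 39.3-fold difference (log2 -5.30, SE 0.40). Fresh libraries, at 138, 286 and 106 CPM, lay around cryopreservation-1 and far above cryopreservation-2. Rassf3, of the Ras association domain family, fell from 40.9, 29.5 and 35.1 CPM to 2.20, 3.67 and 4.02 CPM (10.7-fold, adjusted p = 0.00383). Lrrc31, a leucine-rich repeat protein, stood at 46.0, 28.4 and 32.5 against 2.97, 3.47 and 0.883 CPM, and Gprc5c, an orphan G protein-coupled receptor, at 43.3, 33.6 and 35.5 against 0.479, 3.01 and 3.45 CPM. These genes were 14.6-fold and 16.1-fold lower.

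The other leading genes that were lower changed by less than 4-fold. Deptor, an inhibitor of the growth kinase mTOR, stood at 434, 346 and 392 CPM in cryopreservation-1 and 84.8, 139 and 102 CPM in cryopreservation-2 (3.6-fold). Rims1, an organiser of vesicle release sites, gave 213, 187 and 204 against 91.5, 92.7 and 76.7 CPM (2.32-fold). Stard7, a carrier of phosphatidylcholine to mitochondria, gave 361, 311 and 360 against 142, 160 and 158 CPM (2.25-fold). Chp1, Aldh18a1, which makes the precursor of proline, Angptl2 and Bcas3 were lower by 2.53-, 2.64-, 2.95- and 2.29-fold. Dazl, a germ-cell protein that binds maternal mRNAs and promotes their translation, stood at 1429, 1272 and 1449 CPM in cryopreservation-1 and 471, 447 and 519 CPM in cryopreservation-2. All 3 cryopreservation-2 values of Dazl lay below every other library, the fresh ones at 1228 to 2217 CPM included (log2 -1.53, SE 0.23, adjusted p = 0.0138).

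**Figure D2:**
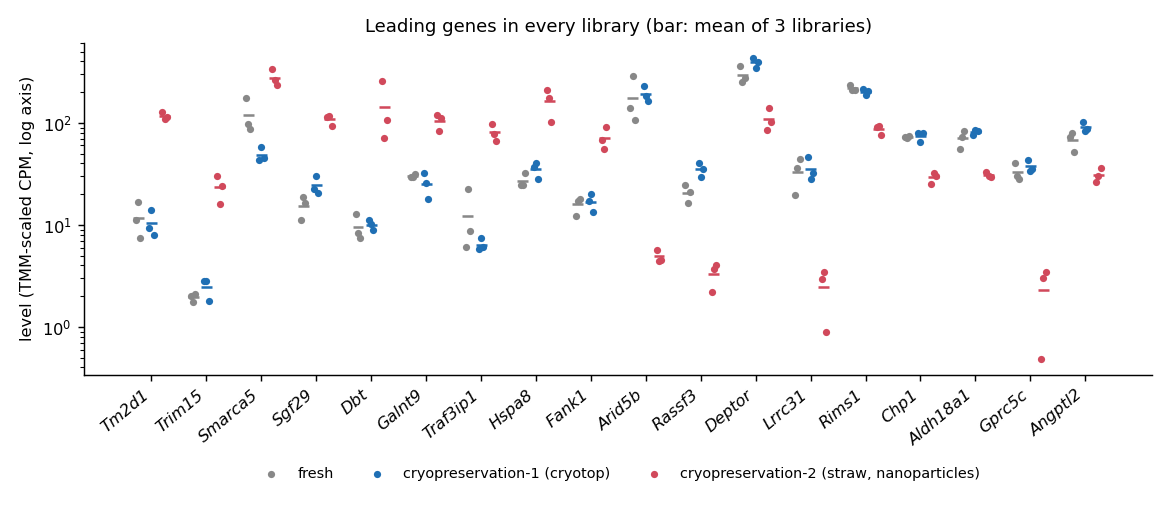
Levels of the first 9 genes named in each direction (TMM-scaled CPM, log axis), by library; points are libraries, bars the mean of 3, grey is fresh, blue cryopreservation-1 and red cryopreservation-2. In each of the 18 genes the red and blue points do not overlap, and in Arid5b the red points sit between 4.47 and 5.69 CPM, below all blue and grey points.

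Some transcripts were detected after one method only. Ankrd33b had 0 counts in the 3 cryopreservation-1 and the 3 fresh libraries and 506, 220 and 158 counts in cryopreservation-2, at least 438-fold higher by library totals when 3 counts are allowed over the group at 0. Kctd2, an adaptor of ubiquitin ligases, had 0 counts in cryopreservation-1, 7 counts in fresh and 168, 290 and 363 counts in cryopreservation-2 (at least 407-fold higher). Dync1i1, an intermediate chain of the motor dynein, had 324, 89 and 204 counts against 0 (at least 306-fold higher), and Gm6116 had 152, 72 and 199 (at least 210-fold higher). B430305J03Rik, whose exons lie wholly within exons of Rap2b on the opposite strand, had 1101 counts in cryopreservation-2 replicate 1 alone and 0 in the other 8 libraries, and was not tested. In the other direction, Rhbdf1, an inactive member of the rhomboid family, had 419, 465 and 242 counts in cryopreservation-1 and 0 in cryopreservation-2, at least 252-fold lower. Trdn, triadin, known from calcium release units of muscle, had 250, 246 and 60 counts against 0 (at least 125-fold lower). Cerkl and Gm48914 were lower by at least 85.4-fold and 148-fold, with 21.3% of the exon bases of Cerkl shared with Itga4 on the opposite strand. Gm44140 had 341, 430 and 0 counts against 0 and did not pass the test (adjusted p = 0.13).

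The nuclear genes of oxidative phosphorylation, the 5 complexes of the mitochondrial inner membrane that move electrons and make ATP, had the most called members of any list. Of 77 members tested, 12 were called higher in cryopreservation-2 and 0 lower (edgeR; 44 higher and 2 lower at an unadjusted p under 0.05, and 31 higher and 2 lower by DESeq2), against 1.5% and 1.25% of all genes. Their median log2 fold change was 1.08 against -0.07 for all genes tested, and 68 were above 0. The 3 libraries of each method did not overlap in 48 members that were higher, against 13.8% of all genes. Without cryopreservation-1 replicate 1 or its replicate 3, 0 members were called by edgeR, and without both libraries that stood apart also 0, with medians of 1.08, 0.89 and 0.94. By complex, 5 of 36 complex I genes, 2 of 4 complex II genes, 2 of 9 complex III genes, 3 of 12 complex IV genes and 0 of 15 ATP synthase genes were called higher. The medians of the 5 groups lay between 0.93 (complex IV) and 1.53 (complex III), so the ATP synthase genes, at 1.00, had a median like the others without a called member.

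Ndufb4, an accessory subunit of complex I, gave 0.946, 0.748 and 0.919 CPM in cryopreservation-1 and 7.32, 11.3 and 7.90 CPM in cryopreservation-2 (10.1-fold, adjusted p = 0.00864). Ndufa1, another accessory subunit, gave 1.67, 2.77 and 0.968 against 15.6, 19.8 and 16.4 CPM (9.55-fold, adjusted p = 0.0112). Fresh libraries were with cryopreservation-1 in both, at 0.522 to 1.08 and 1.27 to 2.60 CPM. Ndufs5 was 3.74-fold higher, at 21.9, 20.5 and 19.1 against 6.49, 6.42 and 3.53 CPM. Ndufa8 was 3.59-fold higher, and its fresh libraries (4.0 to 6.07 CPM) lay above cryopreservation-1 (2.55 to 3.90 CPM) and below cryopreservation-2 (9.23 to 13.4 CPM). As a share of all counts, the list took 0.275%, 0.273% and 0.225% in cryopreservation-1 and 0.273%, 0.332% and 0.346% in cryopreservation-2. These shares overlapped (exact two-sided permutation p = 0.3, where 3 against 3 libraries can give no less than 0.1). By summed FPKM, which weights by length, they did not, at 0.366%, 0.36% and 0.273% against 0.387%, 0.495% and 0.504% (exact permutation p = 0.1).

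Of the 13 protein-coding genes of the mitochondrial genome itself, 0 were called (edgeR; 2 higher and 0 lower at an unadjusted p under 0.05, and 1 higher by DESeq2). Their median log2 fold change was 0.18. In the fit corrected for GC content and length it was -0.26, where the median of all genes was -0.20, and -0.07 relative to all genes. They took 0.392%, 0.459% and 0.442% of counts in cryopreservation-1 and 0.593%, 0.308% and 0.644% in cryopreservation-2, where replicate 2 was the lowest and replicate 3 the highest of all 6 (exact permutation p = 0.5). The highest and lowest members were mt-Nd6, at 1.16 (SE 0.42, adjusted p = 0.161), and mt-Co2, at -0.30 (SE 0.28, adjusted p = 0.655). Whether the nuclear and the mitochondrial genes differ in their response was not tested.

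Genes of mitochondrial import, channels and dynamics were called in both directions, with 3 of 37 higher and 2 lower (13.5%, against 2.75% of all genes). Timm10, a chaperone of proteins on their way to the inner membrane, was 6.06-fold higher, at 27.6, 35.2 and 26.8 CPM against 5.92, 6.42 and 2.44 CPM. Of the outer membrane channels, Vdac3 was higher, at 115, 66.4 and 63.4 against 24.8, 30.3 and 34.5 CPM (2.73-fold), and Vdac1 was lower, at 42.2, 51.8 and 50.5 against 95.5, 77.1 and 95.4 CPM (1.85-fold, adjusted p = 0.0424). The call of Vdac1 was lost whichever library was left out (adjusted p-values of 0.0511 to 0.165). Mitofusin 1, Mfn1, which joins outer membranes in fusion, was lower at 54.0, 44.1 and 54.9 against 101, 94.3 and 132 CPM (adjusted p = 0.0364). Mff, a receptor of the fission machinery and outside the naming rule, was the remaining call, higher in cryopreservation-2. In the citric acid cycle and glycolysis, 1 of 34 genes was called (2.94%, near the 2.75% of all genes). It was fumarate hydratase, Fh1, at 55.4, 43.8 and 51.1 against 26.9, 21.3 and 20.2 CPM (2.20-fold). That list took 0.278% to 0.501% of counts in cryopreservation-1 and 0.578% to 0.738% in cryopreservation-2 (exact permutation p = 0.1, the smallest possible). Most of it came from Ldhb, a subunit of lactate dehydrogenase that was not called and is named with its values in view, with means of 2697 and 4602 CPM (log2 0.77, adjusted p = 0.239).

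Cytosolic ribosomal protein genes had the highest median of all lists, 1.27. Of the 79 measured, 72 were tested, and 8 were called higher and 0 lower by edgeR (11.1%, against 2.75% of all genes). At an unadjusted p under 0.05 there were 31 and 0, and DESeq2 called 28 and 0. Of the edgeR calls, 7 were in the large subunit and 1 in the small subunit. Without cryopreservation-1 replicate 1 or 3, or without both libraries that stood apart, 0 were called by edgeR, with medians of 1.34, 1.06 and 1.27. Rpl11, which also binds the p53 inhibitor Mdm2, gave 10.8, 9.69 and 4.50 CPM in cryopreservation-1 and 33.9, 42.4 and 38.9 CPM in cryopreservation-2 (4.61-fold, adjusted p = 0.019), and Rpl37 gave 3.52, 4.02 and 2.53 against 13.5, 9.27 and 17.9 CPM (4.03-fold). Rpl4 was the least changed of those named, at 132, 106 and 97.2 against 44.6, 58.9 and 40.1 CPM (2.34-fold). The list's share of counts was 0.0746%, 0.0753% and 0.0423% in cryopreservation-1 and 0.103%, 0.137% and 0.137% in cryopreservation-2, without overlap (exact permutation p = 0.1). These levels are uncertain, since reads of a ribosomal protein gene can be shared with its processed pseudogenes.

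The promoters of ribosomal protein genes and of nuclear genes for mitochondria are known for binding sites of ETS factors, whose core CCGGAAG was searched on both strands in the 250 bases before the RefSeq start (GRCm38.p6). It was found in 13.1% of the 9354 tested genes with a single listed start, in 15.6% of those called higher, and in 12.5% of those called lower. By list it was found in 33.3% of 48 cytosolic ribosomal protein genes, 24.2% of 66 mitochondrial ribosomal protein genes, 32.4% of 34 proteasome genes and 18.3% of 60 oxidative phosphorylation genes. Of the windows shown, chosen as called ribosomal and complex I genes whose windows lie outside annotated exons but for a few bases, the one of Rpl37 (chr15:5116363-5116612, plus strand) holds the core, in capitals, and those of Rpl4 (chr9:64173137-64173386, plus strand) and Ndufs5 (chr4:123718187-123718436, minus strand) do not hold these letters. A match is only a match of letters.
Rpl37: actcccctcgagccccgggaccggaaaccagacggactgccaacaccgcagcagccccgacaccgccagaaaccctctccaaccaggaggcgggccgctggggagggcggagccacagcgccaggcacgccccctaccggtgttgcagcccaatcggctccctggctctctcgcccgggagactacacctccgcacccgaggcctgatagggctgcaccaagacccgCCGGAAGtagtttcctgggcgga
Rpl4: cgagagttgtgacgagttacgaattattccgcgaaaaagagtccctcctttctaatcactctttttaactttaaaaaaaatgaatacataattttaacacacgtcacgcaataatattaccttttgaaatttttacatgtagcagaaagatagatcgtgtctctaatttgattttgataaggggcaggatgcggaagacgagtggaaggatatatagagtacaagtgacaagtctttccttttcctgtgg
Ndufs5: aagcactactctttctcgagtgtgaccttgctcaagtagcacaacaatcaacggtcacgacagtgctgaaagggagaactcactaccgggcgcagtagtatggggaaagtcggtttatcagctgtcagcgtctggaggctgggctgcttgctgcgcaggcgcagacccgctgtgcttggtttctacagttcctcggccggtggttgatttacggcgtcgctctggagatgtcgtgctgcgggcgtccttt

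Mitochondrial ribosomal protein genes, whose products translate the mitochondrial mRNAs, had 6 of 79 members called higher and 1 lower (8.86%, against 2.75% of all genes). Their median was 0.44. Without cryopreservation-1 replicate 1 or 3, or without both libraries that stood apart, 0 were called by edgeR, with medians of 0.49, 0.30 and 0.39, and the lower call was lost without any 1 library of the methods. Mrps33 was among the 12 leading genes, at 176, 168 and 176 CPM in cryopreservation-2 against 56.4, 62.5 and 37.2 CPM. Mrps31 was 6.40-fold higher, at 53.9, 46.2 and 61.8 against 9.5, 10.5 and 5.24 CPM, and Mrps28 3.46-fold higher. Mrpl58, a peptidyl-tRNA hydrolase that rescues stalled mitochondrial ribosomes, gave 2.95, 1.84 and 2.21 against 10.1, 11.6 and 8.62 CPM (4.32-fold). The list took 0.203%, 0.224% and 0.175% of counts in cryopreservation-1 and 0.296%, 0.301% and 0.328% in cryopreservation-2 (exact permutation p = 0.1). Of 53 cytosolic translation factors 1 was called higher and 1 lower (3.77%, against 2.75% of all genes), with a median of 0.08. These were Eef1e1, a scaffold of the aminoacyl-tRNA synthetase complex, at 46.5, 54.8 and 53.0 against 18.9, 28.2 and 18.2 CPM, and Eif4a1, the helicase of cap-dependent initiation, at 286, 375 and 284 against 616, 578 and 575 CPM.

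Among proteasome genes, which encode the particle that degrades ubiquitin-tagged proteins, 5 of 43 were called higher and 0 lower (edgeR; 14 and 3 at an unadjusted p under 0.05, 10 and 2 by DESeq2). Without cryopreservation-1 replicate 1 or 3, or without both libraries that stood apart, 0 were called by edgeR, with medians of 0.50, 0.45 and 0.45. In the main fit 11.6% were called, against 2.75% of all genes, and the median was 0.50. Of the calls, 4 were among 14 genes of the core particle, 1 among 21 of the regulatory particle and 0 among 8 activators and assembly factors. Psmb2, a subunit of the core, stood at 35.7, 47.3 and 27.3 CPM in cryopreservation-1 and 123, 129 and 111 CPM in cryopreservation-2 (3.29-fold, adjusted p = 0.0157). Psma5 gave 41.9, 44.0 and 27.6 against 104, 116 and 139 CPM, Psma6 was 2.47-fold higher, and Psmd10, an assembly chaperone of the regulatory particle counted with it here, was 2.70-fold higher. As a share of all counts the list overlapped, at 0.536% to 0.636% against 0.568% to 0.679% (exact permutation p = 0.5).

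Of 51 ubiquitin conjugation genes, 6 were called higher and 0 lower (edgeR; 10 and 5 at an unadjusted p under 0.05, 9 and 2 by DESeq2). By edgeR that is 11.8% of the list, against 2.75% of all genes. Of the fits that left out 1 library of the methods, the one without cryopreservation-2 replicate 1 called 3 and the other 5 called 0. Ube2t, a conjugating enzyme of the Fanconi anaemia pathway of DNA repair, reached 428, 463 and 452 CPM in cryopreservation-2 against 64.2, 118 and 84.9 CPM (5.02-fold, adjusted p = 0.0268). Nedd8, a ubiquitin-like protein that activates cullin ligases, gave 43.8, 50.3 and 39.6 against 14.2, 18.1 and 12.7 CPM (2.97-fold). Of its exon bases, 14.6% are shared with Gmpr2 on the opposite strand. Ube2v2 was 3.06-fold higher, and Uchl5, a deubiquitinating enzyme of the proteasome, 1.91-fold higher. Uchl1, a deubiquitinating enzyme abundant in oocytes, was higher at 424, 535 and 510 against 257, 305 and 210 CPM (1.9-fold, adjusted p = 0.0404), with 18.1% of its exon bases shared with the antisense gene Uchl1os. Ubb, outside the naming rule, was the remaining call, higher in cryopreservation-2. The list took 0.944% to 1.03% of counts in cryopreservation-1 and 1.24% to 1.51% in cryopreservation-2 (exact permutation p = 0.1). This share is a sum in which abundant members weigh most. The list's median log2 fold change was 0.14, with 31 of 51 members above 0.

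**Figure D3:**
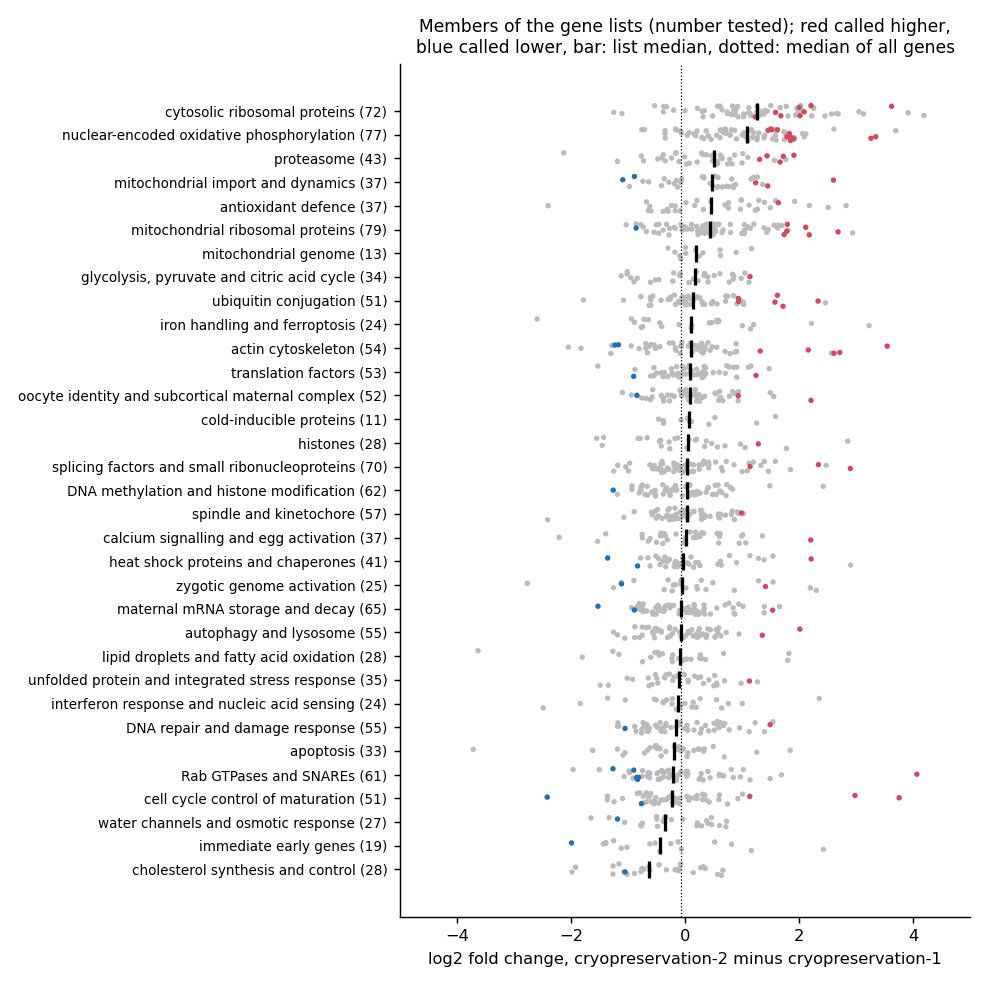
Each row is a gene list with the number of members tested; points are members at their log2 fold change (cryopreservation-2 minus cryopreservation-1), red where called higher, blue where called lower, grey where not called, with the list median as a bar and the median of all genes (-0.07) dotted. Ribosomal protein and oxidative phosphorylation genes lie furthest right, with medians of 1.27 and 1.08, and cholesterol synthesis genes furthest left, at -0.63; 16 member values beyond 5 in size, among them genes with 0 counts in one method, lie outside the axis.

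Of 41 heat shock proteins and chaperones, 1 was called higher (Hspa8, above) and 2 lower, or 7.32% against 2.75% of all genes. Dnajb1, the main Hsp40 partner of Hsp70, stood at 89.1, 106 and 120 CPM in cryopreservation-1 and 38, 51.4 and 33.1 CPM in cryopreservation-2 (2.57-fold, adjusted p = 0.022). Hsf1, the transcription factor of the heat shock response, gave 334, 348 and 357 against 170, 231 and 181 CPM (1.78-fold, adjusted p = 0.0422). The call of Hsf1 was lost whichever library was left out, with adjusted p-values of 0.0502 to 0.167. Hspa1a, the inducible Hsp70, was at most 1.20 CPM in any library, and its log2 difference was 1.28 (SE 1.79, adjusted p = 0.798). Of 11 cold-inducible genes, 0 were called (edgeR; 2 higher and 0 lower at an unadjusted p under 0.05, 2 higher by DESeq2). The RNA-binding proteins made in mild cold stayed within the replicate spread: Cirbp gave 28.6, 27.4 and 26.4 against 26.6, 25.3 and 32.9 CPM, and Rbm3 gave 8.63, 13.0 and 10.7 against 11, 8.59 and 11.1 CPM. Their log2 fold changes were 0.04 (SE 0.22) and -0.08 (SE 0.27). In the unfolded protein response, 1 of 35 genes was called (2.86%, near the 2.75% of all genes). It was Creld2, a chaperone of the endoplasmic reticulum, at 1321, 973 and 1022 against 463, 589 and 469 CPM (2.18-fold, adjusted p = 0.0308). Atf3, a stress-induced transcription factor, was at most 1.22 CPM in any library, with 0.479, 0.787 and 0.194 against 0.537, 1.22 and 0.333 CPM.

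Sod1, the cytosolic superoxide dismutase, was the gene called by edgeR among 37 of antioxidant defence (2.7%, near the 2.75% of all genes). DESeq2 called 8 higher and 0 lower in that list. Sod1 stood at 42.1, 56.5 and 34.6 CPM in cryopreservation-1 and 165, 133 and 115 CPM in cryopreservation-2 (3.10-fold, log2 1.63, SE 0.24, adjusted p = 0.0128), with fresh at 33.6 to 43.5 CPM. The list's median was 0.45, with 11 members higher and 1 lower at an unadjusted p under 0.05. Gpx4, which reduces lipid peroxides, gave 6.05, 4.4 and 1.73 against 4.12, 14.7 and 10.5 CPM, and the groups overlapped (adjusted p = 0.245). Of 24 genes of iron handling, of interest because the nanoparticles hold Fe3O4, 0 were called (edgeR; 1 higher and 5 lower at an unadjusted p under 0.05, 1 higher by DESeq2). The ferritin subunits lay on opposite sides without passing the test. Fth1, the heavy chain, gave 26.7, 50.0 and 43.4 against 15.0, 28.8 and 18.6 CPM (log2 -0.94, SE 0.31, adjusted p = 0.124), and Ftl1, the light chain, gave 24.3, 36.1 and 24.5 against 59.7, 85.6 and 49.8 CPM (log2 1.20, SE 0.34, adjusted p = 0.0846). Tfrc, the transferrin receptor, was low throughout, at 1.72, 0.838 and 1.52 against 0, 0.182 and 0.483 CPM (adjusted p = 0.246).

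Cholesterol synthesis genes had the lowest median of all lists, -0.63, with 21 of 28 below 0. By edgeR 1 was called lower and 0 higher (3.57%, against 2.75% of all genes). At an unadjusted p under 0.05, 6 were lower and 0 higher, and DESeq2 called 3 lower. The gene called by edgeR was Insig1, which holds back the sterol sensor of the endoplasmic reticulum, at 261, 272 and 273 CPM in cryopreservation-1 and 143, 144 and 102 CPM in cryopreservation-2 (2.08-fold, adjusted p = 0.0211). Of 28 genes of lipid droplets and fatty acid oxidation, 0 were called (edgeR; 3 higher and 2 lower at an unadjusted p under 0.05, 2 and 1 by DESeq2). Among 27 genes of water channels and the osmotic response, 1 was called (3.7%, against 2.75% of all genes). It was Aqp9, a channel for water and glycerol, at 59.1, 58.5 and 73.4 against 25.4, 30.1 and 28.4 CPM (2.28-fold lower, log2 -1.19, SE 0.21, adjusted p = 0.0218). Aqp3, which also carries glycerol, had 16, 0 and 0 counts in cryopreservation-1 and 0 in cryopreservation-2 and was not tested. Of 33 apoptosis genes, 0 were called (edgeR; 0 higher and 6 lower at an unadjusted p under 0.05, 4 lower by DESeq2).

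In autophagy and the lysosome, 2 of 55 genes were called higher and 0 lower (3.64%, against 2.75% of all genes). Lamp1, the major lysosomal membrane glycoprotein, stood at 31.2, 39.6 and 13.6 CPM in cryopreservation-1 and 112, 135 and 93.4 CPM in cryopreservation-2 (4.03-fold, adjusted p = 0.0308), and Atp6v1g1, a subunit of the proton pump, was 2.55-fold higher, a call lost whichever library was left out. Among 55 DNA repair genes, 1 was called higher and 1 lower, also 3.64%. Trp53bp1, which binds chromatin at double-strand breaks, was lower at 406, 489 and 414 against 974, 696 and 1051 CPM (2.08-fold, adjusted p = 0.0461). Its call held in 1 of the 9 fits that left out a library, and 15% of its exon bases are shared with Tubgcp4 on the opposite strand.

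Regulators of meiotic maturation were called in both directions, 3 of 51 higher and 2 lower (9.8%, against 2.75% of all genes), with a median of -0.23. At an unadjusted p under 0.05 there were 4 higher and 16 lower, and DESeq2 called 3 higher and 7 lower. With the GC and length correction edgeR called 3 higher and 8 lower, in a fit where the median of all genes was -0.20. The largest changes were in protein phosphatase 2A, which opposes the M-phase kinase. Its catalytic subunit Ppp2ca rose from 5.93, 7.26 and 4.72 CPM to 107, 80.9 and 53.2 CPM (13.4-fold, log2 3.75, SE 0.54, adjusted p = 0.0121), and its regulatory subunit Ppp2r2d from 15.4, 13.0 and 15.9 CPM to 130, 117 and 102 CPM (7.87-fold, adjusted p = 0.0209). Fresh libraries of these genes were spread widely, at 7.01 to 33.6 and 13.3 to 70.8 CPM. Cdc27, a subunit of the anaphase-promoting complex, was 2.19-fold higher, at 318, 262 and 290 against 130, 135 and 132 CPM. Cdk2, a cyclin-dependent kinase, was lower at 2.87, 3.92 and 3.28 against 22.5, 18.5 and 12.9 CPM (5.35-fold, adjusted p = 0.00983). Ccna2, its cyclin partner, which lies outside the naming rule, was the other call, with means of 652 and 383 CPM. The list took 2.17%, 2.19% and 2.28% of counts in cryopreservation-1 and 1.9%, 1.96% and 1.87% in cryopreservation-2 (exact permutation p = 0.1). In the spindle and kinetochore list 1 of 57 genes was called (1.75%, against 2.75% of all genes). It was the kinesin Kif4, 1.98-fold higher at 244, 183 and 230 against 113, 124 and 94.0 CPM. Of its exon bases, 15.1% are shared with Pdzd11 on the opposite strand.

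Of 54 actin cytoskeleton genes, 5 were called higher and 2 lower (13.0%, against 2.75% of all genes). Tmsb10, a small protein that binds actin monomers, was 6.10-fold higher, at 21.4, 25.8 and 18.7 CPM against 5.56, 3.20 and 2.03 CPM. Rac1, a GTPase that drives actin branching, gave 109, 121 and 102 CPM in cryopreservation-1 and 497, 468 and 518 CPM in cryopreservation-2 (4.46-fold, adjusted p = 0.0234). Its fresh libraries ran from 149 to 574 CPM, and 51.4% of its exon bases are shared with Daglb on the opposite strand, so the reads of these genes cannot be told apart without the strand setting. Rock2, a kinase of actomyosin contraction, was 2.49-fold higher, and the tropomyosin Tpm3 2.35-fold lower, at 29.6, 36.1 and 22.6 against 79.0, 60.9 and 67.8 CPM.

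Of 61 Rab and SNARE genes, which direct vesicle traffic, 5 were called lower and 1 higher, with a median of -0.21. That is 9.84% called, against 2.75% of all genes. Stx7, a SNARE of late endosomes, fell from 62.0, 58.1 and 68.6 CPM to 28.0, 23.4 and 27.0 CPM (2.41-fold, adjusted p = 0.0138). Rab10 gave 206, 192 and 222 against 105, 113 and 130 CPM and Rab6a 280, 225 and 262 against 124, 154 and 147 CPM, with 19% of the exon bases of Rab6a shared with Mrpl48 on the opposite strand. Arf6, a GTPase of the plasma membrane and endosomes, was the exception, at 21.6, 27.8 and 28.6 CPM against 1.33, 1.35 and 1.98 CPM (16.7-fold higher, log2 4.06, SE 0.80, adjusted p = 0.0296). Of its exon bases, 13.6% are shared with Gm9887 on the opposite strand. The list took 0.515% to 0.546% of counts in cryopreservation-1 and 0.451% to 0.485% in cryopreservation-2 (exact permutation p = 0.1).

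For calcium signalling at egg activation, 1 of 37 genes was called (2.7%, near the 2.75% of all genes). Calm2, one of the genes for the calcium sensor calmodulin, stood at 23.3, 28.2 and 23.1 CPM in cryopreservation-1 and 146, 81.2 and 115 CPM in cryopreservation-2 (4.59-fold, adjusted p = 0.0128). Zp3, the zona pellucida protein that sperm bind, overlapped at 145, 136 and 74.3 against 108, 215 and 209 CPM (adjusted p = 0.465).

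Maternal mRNA regulators had 1 of 65 genes called higher and 2 lower (4.6%, against 2.75% of all genes). Parn, a ribonuclease that shortens poly(A) tails, was higher at 48.9, 28.7 and 24.8 CPM against 12.4, 10.8 and 12.2 CPM (2.89-fold, adjusted p = 0.0322). Cpeb1, which binds the cytoplasmic polyadenylation element of dormant mRNAs, was lower at 93.6, 116 and 103 against 227, 172 and 179 CPM (1.85-fold, adjusted p = 0.0467), and Dazl was lower as given above. Among 70 splicing genes, 3 were called higher and 0 lower by edgeR (4.29%). At an unadjusted p under 0.05 there were 13 and 6, and DESeq2 called 12 and 1. Those called by edgeR were Snrnp40 at 2.20-fold, Hnrnpd at 5.04-fold, and Srsf9 at 7.43-fold, with 6.48, 8.24 and 7.20 against 0.298, 1.81 and 0.839 CPM. In the list of 52 genes of oocyte identity and the subcortical maternal complex, 2 were called higher and 1 lower (5.77%, against 2.75% of all genes). Dppa5a was higher, at 19.2, 24.3 and 23.9 against 4.38, 7.05 and 3.19 CPM, as was Uchl1. Oog1, an oocyte leucine-rich repeat protein, was lower at 998, 721 and 853 against 1571, 1521 and 1535 CPM. Bmp15, the partner of Gdf9, overlapped at 669, 974 and 1049 against 1175, 977 and 702 CPM (log2 0.08, SE 0.23).

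Kdm4a, a demethylase of histone H3 lysine 9, was the call among 62 genes of DNA methylation and histone modification (1.61%, against 2.75% of all genes). It was lower at 56.5, 86.2 and 65.2 against 183, 149 and 167 CPM. H3f3a, a gene of the replacement histone H3.3, was the call among 28 histone genes (3.57%, against 2.75% of all genes). Its level was 220, 252 and 264 against 104, 126 and 72.9 CPM (2.43-fold, adjusted p = 0.0498, just inside the threshold). Of 25 genes of zygotic genome activation, 1 was called higher and 1 lower (8%, against 2.75% of all genes). Dppa2, which primes early embryonic genes, was 2.65-fold higher, at 207, 174 and 223 against 88.0, 74.8 and 65.0 CPM. Klf17, a zinc finger factor abundant in oocytes, was 2.17-fold lower, at 1571, 1616 and 1063 against 2925, 2943 and 3358 CPM. Klf6 was the call among 19 immediate early genes (5.26%, against 2.75% of all genes). It was lower at 4.37, 6.68 and 2.90 against 21.7, 15.2 and 18.6 CPM (3.98-fold). Of 24 interferon and nucleic acid sensing genes, 0 were called (edgeR; 3 higher and 4 lower at an unadjusted p under 0.05, 2 and 1 by DESeq2). Its highest member was Ifit1, an interferon-induced protein, at 0.337, 0.838 and 0.387 against 1.74, 3.23 and 3.02 CPM (adjusted p = 0.0697).

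Transcript length moved with the comparison. Genes tested were split by length into 5 classes of equal size. In the shortest class (1169 bases or less), 2.48% were called higher and 0.457% lower, with a median log2 fold change of 0.29. In the longest class (4589 bases or more), 0.771% were higher and 1.23% lower, with a median of -0.13. The genes called higher had a median transcript length of 1817 bases, those called lower of 2999.5, and all genes tested of 2548. GC content moved less, with medians of 48.3%, 48.7% and 48.7%. Of the lists with 5 or more members called higher and a median of 0.4 or more, the median length was 918 bases for oxidative phosphorylation, 925.5 for cytosolic and 1339 for mitochondrial ribosomal proteins and 1581 for the proteasome, all below that of all genes. The ubiquitin list, with 6 called higher, was longer, at 3015 bases. Its median was 0.14 without and 0.15 with the correction, where it lay 0.34 above the median of all genes. The actin list, with 5 called higher and 2 lower, was also longer than all genes, at 2829 bases. Its median was 0.10 without and 0.013 with the correction, where it lay 0.21 above the median of all genes. In the corrected fit the median of all genes was -0.20. The medians of the lists from oxidative phosphorylation to the proteasome, in the order given, were 0.69, 0.84, 0.19 and 0.34. Relative to all genes they were 0.89, 1.035, 0.39 and 0.53. The calls were then 9 higher and 2 lower, 6 and 1, 6 and 1, and 4 and 3. The cholesterol list, of median length 3382 bases, was at -0.62 in the corrected fit, or -0.42 relative to all genes, with 2 called lower. The part of length in single genes was not tested further.

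**Figure D4:**
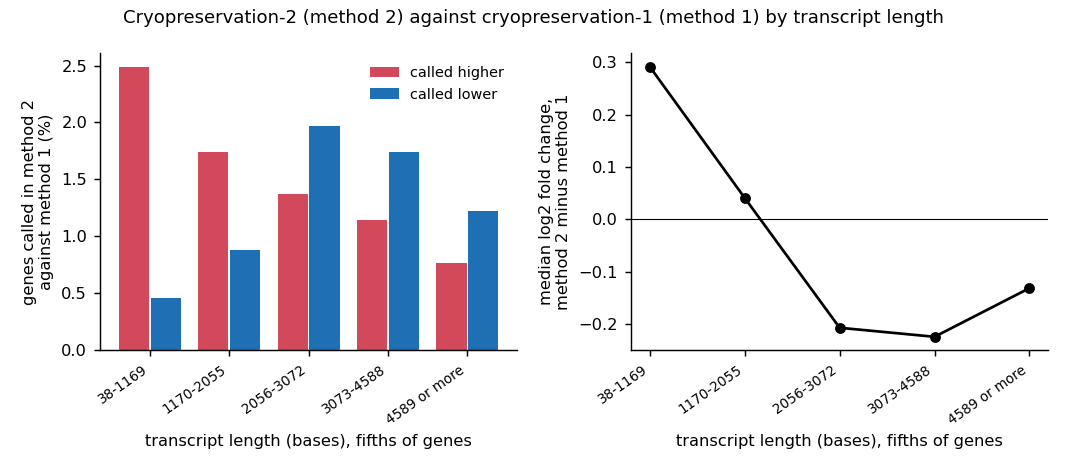
Genes tested are split into 5 classes of transcript length; the left panel gives the percentage of each class called higher (red) or lower (blue) in cryopreservation-2, and the right panel the median log2 fold change. The share called higher falls from 2.48% in the shortest class to 0.771% in the longest, and the median goes from 0.29 to a lowest value of -0.22 in the class of 3073 to 4588 bases.

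For some called genes the fresh libraries lay between the methods without overlapping either. This was looked for only among named genes that were called, whose methods already did not overlap. How many of all genes tested had this order was not counted. Smarca5, Ndufa8, Mrpl58 and Srsf9 had fresh above cryopreservation-1 and below cryopreservation-2. Rassf3, Angptl2, Bcas3, Dnajb1 and Kdm4a, and the low genes Cerkl and Gm48914, had fresh below cryopreservation-1 and above cryopreservation-2. Smarca5 had a log2 fold change of -1.30 in cryopreservation-1 against fresh and of 1.21 in cryopreservation-2 against fresh, and Rassf3 of 0.77 and -2.64. None of the differences of cryopreservation-1 from fresh passed the test, as for all genes. Those of cryopreservation-2 from fresh did not pass for Ndufa8 (edgeR adjusted p = 0.0577) and Srsf9 (0.183). Most of the leading genes did not have this order: Arid5b was at 0.12 in cryopreservation-1 and -5.17 in cryopreservation-2 against fresh, Tm2d1 at -0.16 and 3.32, Hspa8 at 0.37 and 2.58, and Sod1 at 0.19 and 1.82. The means of Rac1, Ppp2ca, Ppp2r2d and Arf6 were ordered like that of Smarca5. Their log2 values against fresh were -1.62, -1.64, -1.29 and -2.39 in cryopreservation-1 and 0.54, 2.11, 1.69 and 1.67 in cryopreservation-2. In cryopreservation-2 only Ppp2ca passed (edgeR adjusted p = 0.0394), against 0.461 for Rac1, 0.0759 for Ppp2r2d and 0.207 for Arf6. Their fresh libraries overlapped those of 1 method, as for Rac1 (149 to 574 CPM) and Arf6 (1.34 to 18.8 CPM).

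**Figure D5:**
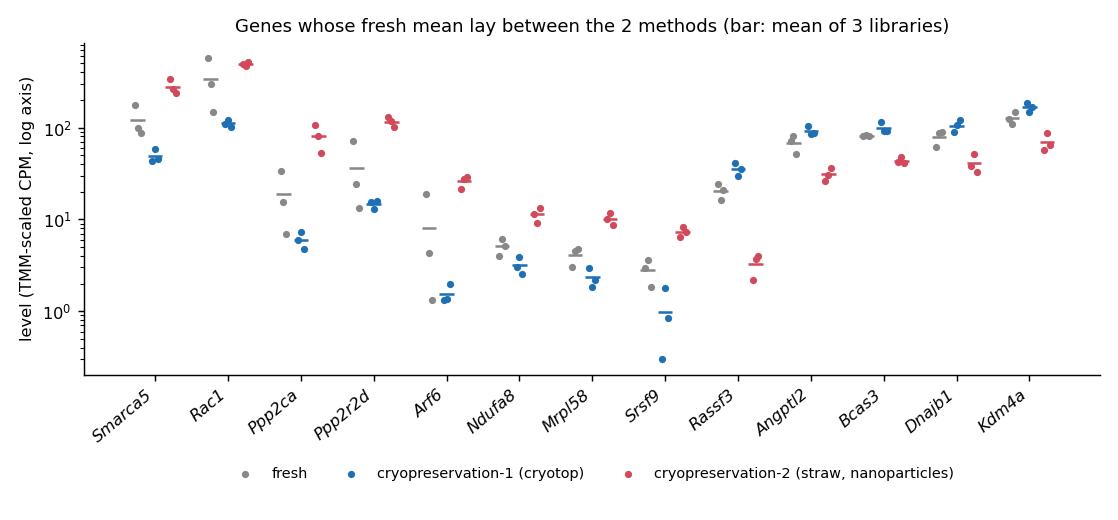
Levels (TMM-scaled CPM, log axis) of 13 called genes whose fresh mean lay between the means of the methods; points are libraries, bars the mean of 3, grey is fresh, blue cryopreservation-1 and red cryopreservation-2. Smarca5 runs from 43.3 to 57.9 CPM in blue, 87.7 to 175 CPM in grey and 235 to 335 CPM in red, while the grey points of Rac1, Ppp2ca, Ppp2r2d and Arf6 spread into the range of another group.

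Markers of other cells of the ovary took small shares of the counts and gave 0 calls, but single members were well detected. Cumulus and granulosa markers (9 in the table, 7 tested) took 0.103% to 0.127% of counts in cryopreservation-1 and 0.113% to 0.176% in cryopreservation-2, most of it from Serpine2. The cumulus gene Ptx3 had 0 counts in 5 of the 6 libraries and at most 14. In cryopreservation-1 and cryopreservation-2, in this order, Serpine2 had means of 1116 and 1342 CPM, Cyp19a1 of 58.7 and 47.0 and Nr5a2 of 16.7 and 10.65. Immune and blood markers (4 tested) took at most 0.00159%. Ptprc had no more than 7 counts, while in the same order C1qb had means of 8.54 and 5.26 CPM and Cd68 of 3.27 and 3.27. Stromal and endothelial markers (7 tested) took at most 0.0208%, most of it from Pecam1. Col1a1 was at 0 in all 6, while Myh11 had means of 22.9 and 36.3 CPM and Kdr of 8.62 and 3.32. By edgeR 0 of these 18 genes were called (1 higher and 2 lower at an unadjusted p under 0.05, 1 higher by DESeq2). All oocyte markers listed were tested, 16 of 16, and 0 were called (edgeR; 4 higher and 0 lower at an unadjusted p under 0.05, 3 higher by DESeq2).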

How the data were processed

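The authors deposited 1 table with raw read counts per gene and FPKM values for each of 9 libraries of oligo(dT)-selected RNA; the submitters' processing notes name cutadapt 1.9, HISAT2 2.0.4, StringTie 1.3.4d and GRCm38. Not given in the sources used here are the counter, its strand setting and the annotation, so antisense or overlapping genes cannot be told apart. The deposited FPKM are counts divided by length and 1 factor per library (SD of log2 ratios at most 0.00231).

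Counts of all 9 libraries entered 1 edgeR 4.0.16 quasi-likelihood fit (R 4.3.3, TMM, filterByExpr with minimum count 10 and total 15, 17545 of 26358 genes kept), tested first on simulated data. P-values were adjusted by Benjamini-Hochberg over all genes tested and called under 0.05. The common biological coefficient of variation was 0.662. Alternatives were DESeq2 1.42.0, limma 3.58.1 on log2(FPKM + 1), other scalings and filters, thinning to 1 depth, a GC and length offset, a replicate block and leaving out each library. The 6 libraries of the methods were also fitted alone. Lengths and GC came from GENCODE M21 transcripts, found for 26286 genes. Single-value shares of counts used exact permutation tests. Libraries of 1 group differed by more than sampling noise in every pair (chi-square per degree of freedom 85.8 to 326). A count of 0 allows 3 counts, 0.0371 to 0.0608 CPM by library; this covers counting error only.

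Members, gene lists and the naming rule were chosen with earlier results of these data known, so no list is independent evidence. Named were up to 12 called genes per direction by p (no overlap between methods, at least 5 FPKM on average in the method where it was higher, no predicted, antisense, shared or pseudogene symbols), up to 4 called members of each list, up to 5 genes per direction at 0 counts in 1 method, the extremes of lists without a call, and a fixed set (Gdf9, Bmp15, Zp3, Hspa8, Hspa1a, Cirbp, Rbm3, Sod1, Gpx4, Fth1, Ftl1, Tfrc, Aqp3, Aqp9, Atf3, Dazl and Arid5b). Some called genes that the rule names are not reported here.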

Additional observations from a re-analysis of the deposited data

Results flagged for a closer look

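For 11 named genes the fresh libraries lay between the 2 methods without overlap. Every library of cryopreservation-1 stood on one side of fresh and every library of cryopreservation-2 on the other. The order was looked for only among named genes that were called, and in every called gene the methods already did not overlap. How many of all genes tested had it was not counted. The difference of the 2 effects, which is the direct contrast of edgeR, was 2.51 (log2) for Smarca5, 1.85 for Ndufa8, 2.11 for Mrpl58 and 2.89 for Srsf9, all higher in cryopreservation-2 than in fresh and lower in cryopreservation-1. It was -3.41 for Rassf3, -1.56 for Angptl2, -1.20 for Bcas3, -1.36 for Dnajb1 and -1.26 for Kdm4a, in the opposite order. Gm48914 and Cerkl, at 0 counts in cryopreservation-2, were lower there by at least 148-fold and 85.4-fold than in cryopreservation-1. The direct contrast passed the test in each, since only called genes were searched. The difference of cryopreservation-1 from fresh passed in none, as for all genes tested. The difference of cryopreservation-2 from fresh did not pass for Ndufa8 (edgeR adjusted p = 0.0577) and Srsf9 (0.183).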

How the results depend on the processing

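Between the methods, 483 genes were called in edgeR, 1830 by DESeq2 (948 higher, 882 lower), and 1271, 1077 and 1359 by limma with a pseudocount of 1, 0.1 and 5. With the 6 libraries of the methods fitted alone, without fresh, edgeR called 540 (329 higher, 211 lower), with 398 of the 483 among them. With a mean of at least 5 CPM 842 were called, with the GC and length correction 943, and against a fold of 1.5 there were 88; the other scalings, the filter and the thinning gave 350 to 619. The replicate numbers did not pair the samples: same-numbered libraries had correlations of their deviations of -0.449, 0.162 and -0.324, and not every library correlated best with its own number. With the number as a replicate block 230 genes were called, 468 with the GC and length correction added, and 500 for cryopreservation-2 against fresh. Leaving out 1 library gave 15 to 480 calls, and leaving out cryopreservation-2 replicate 1 with cryopreservation-1 replicate 3, chosen after seeing the data, gave 5. For cryopreservation-1 against fresh, DESeq2 called 43 genes and leaving out 1 library gave 0 to 1. For cryopreservation-2 against fresh, DESeq2 called 2415 in place of 944, and leaving out 1 library gave 231 to 786. Fewer libraries leave fewer residual degrees of freedom; the other causes were not tested. The 94 named genes that were called and tested kept their direction in all alternatives, while calls weakened in 618 of 2666 gene and setting pairs. Signs of uncalled genes near 0 turned. Without 1 library, Gdf9 ran from -0.47 to 0.015, Bmp15 from -0.089 to 0.29 (-0.031 without cryopreservation-2 replicate 1), Cirbp from -0.052 to 0.15, Rbm3 from -0.21 to 0.081 and Atf3 from -0.13 to 1.04. Cirbp was at -0.26 with the GC and length correction (-0.26 with the block), where the median of all genes was -0.20 in both fits. Rbm3 was at 0.00082 by limma with a pseudocount of 0.1, 0.12 by library totals and 0.037 with at least 5 CPM. The ratio of shares for oxidative phosphorylation was 1.23 by counts and 1.39 by summed FPKM, and 1.16 to 1.32 without 1 library.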
